A study of Mus musculus with 4 samples.

Results

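Chemokine, interleukin and colony-stimulating factor genes were examined in 4 mouse lines of small cell lung cancer (SCLC). Members were chosen by symbol alone: genes named Ccl, Cxcl, Cx3cl1, Ccr or Cxcr with a number, any symbol beginning with Il and a digit, Csf1 to Csf3 and their receptors, Lif, Lifr and Osmr. This gave 144 of the 54641 gene symbols in the table. Of these, 75 encode ligands, 63 encode receptor chains, 4 encode antagonists or binding proteins (Il1rn, Il1f5, Il18bp and Il22ra2) and 2 carry the symbol without being a cytokine or receptor (Il4i1, an amino acid oxidase, and the antisense transcript Il1bos).

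The lines came from an autochthonous model on a C57BL/6 background, in which Rb1 and Trp53 are deleted in the lung after intratracheal Adeno-Cre. All 4 lines share these deletions. According to the series' design, P1, P4 and P5 each come from the lung tumor of a separate mouse (n = 3 lines), and M1 from a metastasis in the liver of a further mouse (n = 1), although the label of M1 also names lung as its origin. Lines were cultured in RPMI medium with fetal serum, were left untreated, and were sequenced as 1 library each. The methods give a minimum age for the mice of the study but no age per line, the promoter in front of Cre is not given in the passages used, and a single line stands for all metastases.

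Chemokines are small secreted proteins that direct the migration of leukocytes through G protein-coupled receptors. The CXC ligands around Cxcl1 and Cxcl5 bind Cxcr2 on neutrophils, and many CC ligands bind receptors of monocytes and lymphocytes. Most interleukins act through receptors built of several chains, so that a cell responds only when it expresses all of them. The IL-6 family shares the signaling chain gp130, encoded by Il6st, and activates STAT3, whereas the IL-1 and IL-17 receptor families activate NF-kB. Epithelial tumor cells can act as a source of such ligands and can also carry the receptors.

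Of the ligands, 5 were at 1 count per 1000000 assigned reads (CPM) or more in all 4 lines: Csf1, Il33, Cxcl5, Cxcl1 and Ccl9. Their promoters are shown because the transcripts were present in every line, together with that of Cxcl14, the ligand with the largest positive difference in M1. RefSeq promoters (250 bases before and 50 after the start, GRCm38.p6, the same assembly as mm10) were available for 108 of the 144 members. Cxcl5 was named only. Capitals mark matches to the kB consensus of NF-kB, to the AP-1-type motif TGANTCA or to the STAT-type motif TTCNNNGAA, each searched on both strands. Of Il33, the first of its RefSeq starts is shown.
Cxcl1 promoter (chr5:90890995-90891294, plus strand): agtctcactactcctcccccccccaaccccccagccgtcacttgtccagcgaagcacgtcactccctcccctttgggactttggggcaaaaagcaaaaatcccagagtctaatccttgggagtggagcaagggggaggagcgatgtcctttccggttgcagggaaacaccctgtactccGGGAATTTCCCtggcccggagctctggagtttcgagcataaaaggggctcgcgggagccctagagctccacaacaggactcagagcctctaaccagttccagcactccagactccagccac
Csf1 promoter (chr3:107760420-107760719, minus strand): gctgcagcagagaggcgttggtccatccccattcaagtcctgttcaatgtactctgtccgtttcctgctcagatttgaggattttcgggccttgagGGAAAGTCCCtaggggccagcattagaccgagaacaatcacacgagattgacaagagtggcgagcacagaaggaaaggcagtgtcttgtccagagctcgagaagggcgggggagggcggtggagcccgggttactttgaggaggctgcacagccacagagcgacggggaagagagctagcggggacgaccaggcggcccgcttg
Ccl9 promoter (chr11:83578587-83578886, minus strand): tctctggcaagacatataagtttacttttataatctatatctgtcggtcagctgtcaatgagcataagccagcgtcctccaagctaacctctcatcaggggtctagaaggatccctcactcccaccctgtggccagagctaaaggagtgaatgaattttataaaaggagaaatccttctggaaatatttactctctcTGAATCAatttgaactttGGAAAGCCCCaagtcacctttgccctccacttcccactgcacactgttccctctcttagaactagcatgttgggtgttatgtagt
Il33 promoter (chr19:29924863-29925162, plus strand): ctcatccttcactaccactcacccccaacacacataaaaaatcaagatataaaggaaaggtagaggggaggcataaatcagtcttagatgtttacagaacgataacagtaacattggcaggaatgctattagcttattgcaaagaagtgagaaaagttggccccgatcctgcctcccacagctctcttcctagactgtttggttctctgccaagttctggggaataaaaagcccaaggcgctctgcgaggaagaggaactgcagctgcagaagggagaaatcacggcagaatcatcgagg
Cxcl14 promoter (chr13:56296502-56296801, minus strand): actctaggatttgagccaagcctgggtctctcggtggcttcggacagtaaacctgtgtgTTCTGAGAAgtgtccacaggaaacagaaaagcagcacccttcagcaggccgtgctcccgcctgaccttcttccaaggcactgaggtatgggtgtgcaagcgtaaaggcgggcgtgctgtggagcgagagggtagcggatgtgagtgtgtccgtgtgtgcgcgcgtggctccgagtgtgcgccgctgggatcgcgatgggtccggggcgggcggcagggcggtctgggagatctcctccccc

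The Cxcl1 window held 2 overlapping matches to the kB consensus, 1 per strand, within the run GGGAATTTCCC. The Csf1 window held 1 match, GGAAAGTCCC, and the Ccl9 window held 1 match, GGAAAGCCCC, beside the AP-1-type match TGAATCA. The Il33 window held none of these motifs. The Cxcl14 window held the STAT-type match TTCTGAGAA. This window lies within the annotated gene (56288643 to 56296811), so that its start is not the outermost start of Cxcl14. Among all 32851 RefSeq promoters of this length, 8.46% held the kB consensus, 7.81% the AP-1-type and 8.30% the STAT-type motif. A match describes the letters only and is not a measured binding site.

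The libraries held between 9527011 and 13890726 reads assigned to genes, so that 3 reads corresponded to 0.216 to 0.315 CPM. Despite this depth, P4 and M1 contained fewer genes, with 7985 and 10074 symbols above 0 against 17824 in P1 and 20578 in P5. Of 173 genes for the proteasome, RNA polymerase II, the chaperonin, translation initiation and ribosomes above 10 CPM in both richer libraries (P1 and P5), P4 listed 4 at 0 and M1 listed 1. Zeros are reported as listed here. A log2 difference against a 0 is a fitted value whose size depends on the pseudocount, and it is not a bound: that of Il6ra, for example, was -4.14 with a pseudocount of 1 CPM, -6.07 with 0.25 CPM and -2.12 with 5 CPM. The column names of P1 and P5, the 2 libraries with more genes, carry the same number, which the labels leave unexplained. Neuroendocrine markers, which define the labelled tumor type, were largely missing in some lines. Of 15, 12 were listed at 0 in P1 and 14 in P4, where Ncam1 was the one marker above 0, against 0 in P5 and 6 in M1.

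Of the 144 members, 49 were listed at 0 in every line, 38 were above 0 but under 1 CPM, and 57 reached 1 CPM in at least 1 line. Of all 54641 symbols, 14888 reached 1 CPM in at least 1 line. P1 had 21 ligands and 23 receptor chains at 1 CPM or more, and P5 had 19 and 22. P4 had 6 and 8, and M1 had 13 and 9. In all genes, too, P4 and M1 had the lower shares: 82.5% of the 14888 genes with 1 CPM or more in any line reached that level in P1, 91.5% in P5, 47.9% in P4 and 61.6% in M1, against 80.7%, 75.4%, 24.6% and 42.1% of the 57 members. In M1 hardly any member lay between 0 and this level, since 25 were above 0 and 24 of them at 1 CPM or more. The members summed to 1073 CPM in P1, 551 in P4 and 2119 in P5, against 561 in M1.

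Csf1, the growth factor of macrophages, was at 57.2 CPM in P1, 69.0 in P4 and 197 in P5, against 52.6 in M1. P5 was high, and the counting intervals of P1 (52.5 to 62.2 CPM) and M1 (48.5 to 57.1 CPM, exact Poisson, 95%) overlapped. These intervals cover counting error only and take each assigned read as independent. That was not tested, and for P4 and M1, which contained fewer genes, the intervals here and below may be too narrow. Il33, an alarmin released from damaged epithelial cells, was at 86.9 CPM in P1, 60.8 in P4 and 435 in P5, against 45.3 in M1. As for Csf1, P5 was the high line and M1 the low one, and here no neighboring intervals overlapped. For both genes M1 lay below every primary line but near the lower 2 of them. The differences did not exceed the spread of the primary lines by the test, at -0.80 ± 0.90 for Csf1 and -1.53 ± 1.31 for Il33 (log2 of CPM + 1, SE; limma, adjusted p = 0.724 and 0.721). Without P5 they were -0.25 and -0.67.

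The neutrophil-attracting chemokines each had 1 line that stood above the rest. Cxcl5 was at 117 CPM in P1 against 33.7 in P4, 35.0 in P5 and 40.6 in M1. Beside P1, the interval of P5 (31.6 to 38.6 CPM) overlapped those of P4 (30.7 to 36.9 CPM) and M1 (37.0 to 44.6 CPM), whereas those of P4 and M1 did not overlap. Cxcl1 was at 117 CPM in P4 against 11.1 in P1, 11.3 in P5 and 6.18 in M1. P1 and P5 were alike in Cxcl1 within counting error, and M1 was the lowest. The log2 difference of M1 was -0.34 ± 0.96 for Cxcl5 and -1.86 ± 1.74 for Cxcl1 (SE; limma, adjusted p = 0.852 and 0.721). Without P1, that of Cxcl5 turned to 0.24. Cxcl15, a chemokine known from mouse lung epithelium, was at 82.0 CPM in P5 and 2.31 in P1 and listed at 0 in P4 and M1. All 3 genes lie in one cluster on chromosome 5 of GRCm38.p6, with Cxcl5 at 90759298 to 90761625, Cxcl15 at 90794534 to 90803067 and Cxcl1 at 90891245 to 90893121, yet each had its highest value in a different line.

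Ccl9, a mouse CC chemokine that attracts myeloid cells, was at 74.2 CPM in M1, 42.7 in P4, 21.4 in P5 and 1.89 in P1. No counting intervals overlapped, and M1 was the highest line. The difference of M1 was 2.41 ± 1.84 (log2, SE; limma, adjusted p = 0.721). Its neighbor Ccl6, chosen for mention once its values had been seen, was at 8.24 CPM in M1, 0.174 in P5, with 0 listed for P1 and P4. The monocyte attractants Ccl2 and Ccl7, which lie side by side on the same chromosome 11, had the opposite distribution. Ccl2 was at 16.5 CPM in P1 and 10.9 in P5, Ccl7 at 1.15 in P1 and 12.2 in P5, and both had a value of 0 in P4 and in M1.

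**Figure D1:**
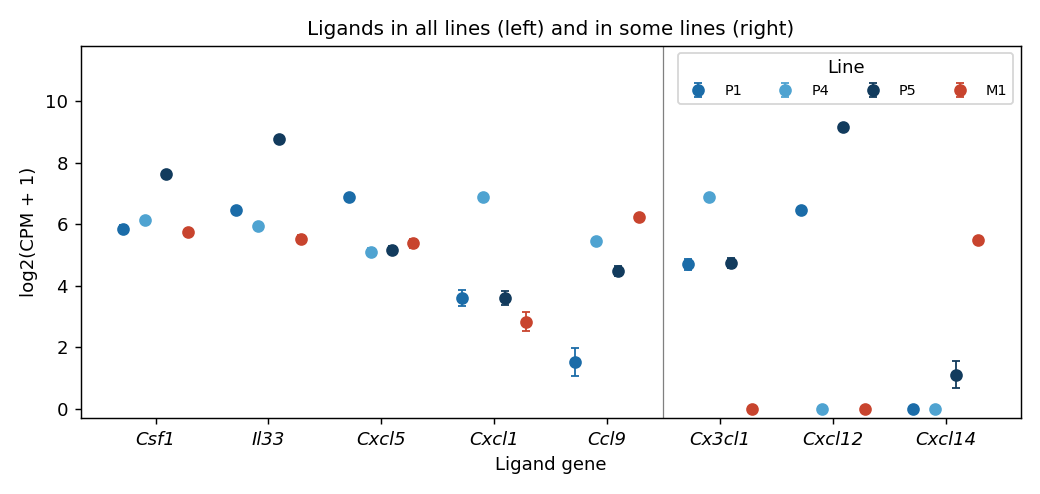
Levels of 8 ligand genes by line as log2(CPM + 1), 1 point per library, with exact Poisson 95% intervals for counting error on values above 0. Csf1, Il33, Cxcl5, Cxcl1 and Ccl9 were above 1 CPM in every line, whereas Cx3cl1 was listed at 0 in M1, Cxcl12 in P4 and M1, and Cxcl14 in P1 and P4.

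Other chemokines were present in some lines only. Cx3cl1, a membrane-bound chemokine whose receptor is carried by monocytes and natural killer cells, was at 117 CPM in P4, 25.1 in P1 and 25.9 in P5 and was listed at 0 in M1. P1 and P5 again overlapped within counting error, and P4 was far above them. The difference of M1 was -5.45 ± 1.31 (log2, SE; limma, adjusted p = 0.338). Cxcl12, the ligand of Cxcr4 and a retention signal in stroma, was at 573 CPM in P5 and 88.3 in P1 and listed at 0 in P4 and M1. Its difference did not pass the test (-5.22 ± 4.02, SE; limma, adjusted p = 0.721), and P4 had the same value of 0 as M1. In sum, fibroblast markers were also highest in P5. The 12 markers of the list summed to 2304 CPM in P5, 122 in P1, 33.7 in P4 and 38.5 in M1. Of these, 10 were at 1 CPM or more in P5, 8 in P1 and 1 each in P4 and M1. In P5, Acta2 was at 1178 CPM, Col3a1 at 483, Col1a2 at 206, Loxl1 at 147, Col1a1 at 145 and Pdgfrb at 86.6, whereas Lum and Thy1 were at 0.174 CPM there and at 0 elsewhere. Dcn went the other way, at 21.8 CPM in P1 against 2.43 in P5, with 0 listed for P4 and M1. The part of these markers in the Cxcl12 level was not tested. Cxcl16, a transmembrane chemokine, was at 14.5 CPM in P1 and 6.16 in P5, with 0 listed for P4 and M1. Its gene overlaps Zmynd15, and the sources used here do not say whether strand was used in counting.

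M1 was the highest line for Cxcl14, Ccl25, Ccl17 and Il16. Cxcl14, a chemokine of epithelia, was at 43.6 CPM in M1, 1.13 in P5, with 0 listed for P1 and P4, a difference of 5.12 ± 1.19 (log2, SE; limma, adjusted p = 0.336). Ccl25, which attracts T cells to the gut and thymus, was at 33.1 CPM in M1, 5.04 in P1, 9.46 in P5 and listed at 0 in P4 (3.10 ± 1.93, SE; limma, adjusted p = 0.721). Ccl17, a ligand of Ccr4 on T cells, was at 11.5 CPM in M1, 0.735 in P1, 0.694 in P5 and listed at 0 in P4. Il16, a T cell attractant cleaved from a larger precursor, was at 14.2 CPM in M1, 0.210 in P1, 0.260 in P5 and listed at 0 in P4. Ccl17 and Il16 were under 1 CPM in every primary line and passed the filter on low values only because of M1, which fixed their direction (3.13 ± 0.95 and 3.73 ± 0.79, SE; limma, adjusted p = 0.432 and 0.304). Ccl17 and Cx3cl1 are neighbors on chromosome 8 (94809380 to 94812038 and 94772180 to 94782427), and in M1 the first was at its highest and the second listed at 0. Il18, a cytokine of the IL-1 family, had no such order, with 8.71 CPM in P1, 18.9 in P5, 10.5 in M1 and 0 in P4. M1 lay between P1 and P5, and its interval overlapped that of P1.

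**Figure D2:**
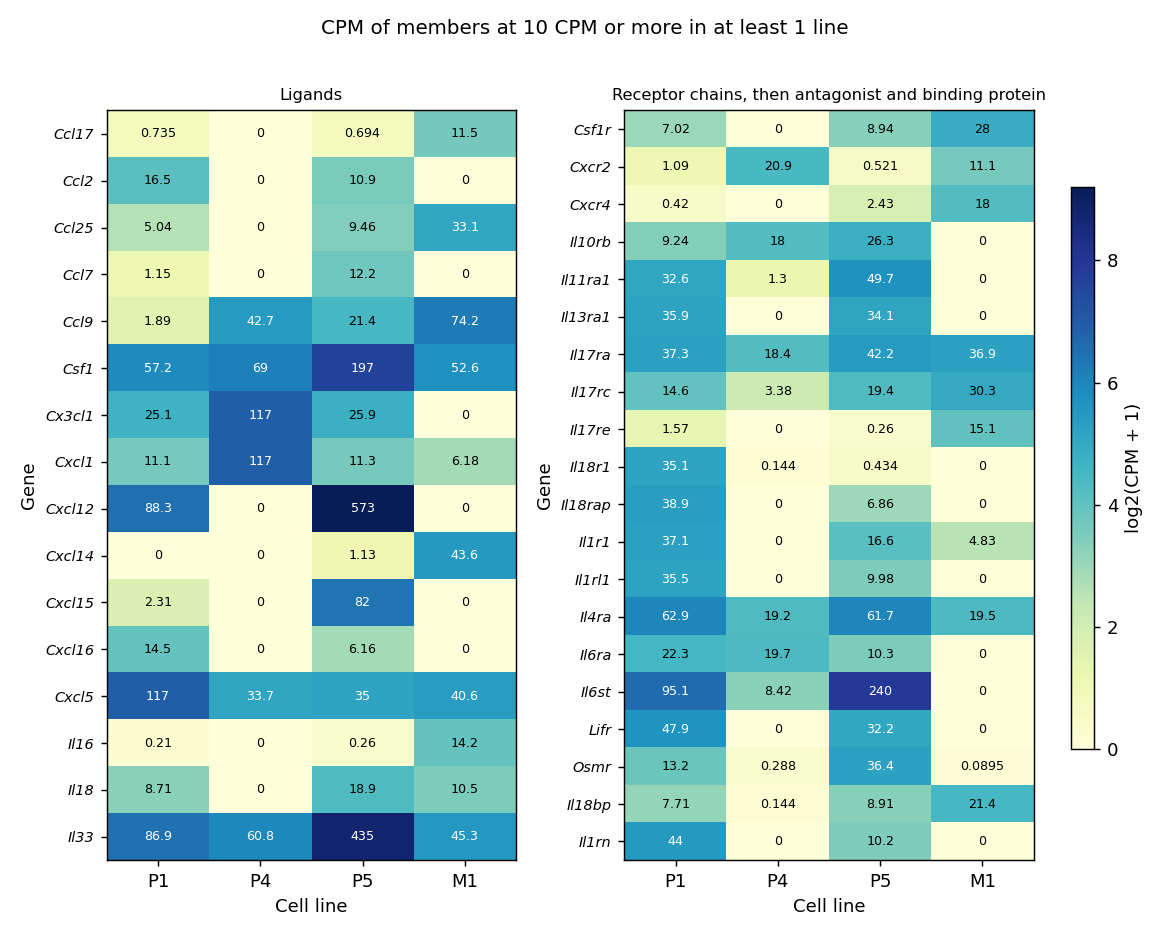
CPM of the 36 members with at least 10 CPM in at least 1 line, with lines as columns, genes as rows, the value printed in each cell and the color giving log2(CPM + 1). Of the 18 members that reached 10 CPM in both P1 and P5, 6 are at 0 in P4 and 9 are at 0 in M1.

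Receptor chains of the IL-6 family were at 0 or at 1 read in M1. Il6st, which encodes the shared chain gp130 (chromosome 13, 112464070 to 112506860), was at 95.1 CPM in P1, 8.42 in P4, 240 in P5 and listed at 0 in M1. All primary lines were thus above M1, though P4 was far below the other primary lines. The difference was -5.91 ± 2.12 (log2, SE; limma, adjusted p = 0.523). Il6ra, which encodes the chain that binds IL-6, was at 22.3 CPM in P1, 19.7 in P4, 10.3 in P5 and listed at 0 in M1 (-4.14 ± 1.23, SE; limma, adjusted p = 0.423). The intervals of P1 and P4 overlapped, and P5 was lower. Il11ra1, the IL-11-binding chain, was at 32.6 CPM in P1, 49.7 in P5 and 1.30 in P4 and listed at 0 in M1. Lifr, which pairs with gp130 to bind LIF, was at 47.9 CPM in P1 and 32.2 in P5, with 0 listed for P4 and M1. Osmr, a receptor chain for oncostatin M, was at 13.2 CPM in P1, 36.4 in P5, 0.288 in P4 and 0.0895 in M1, the last being 1 read. The differences of Il11ra1, Lifr and Osmr were -3.98 ± 2.34, -3.55 ± 2.87 and -3.02 ± 2.45 (log2, SE; limma, adjusted p = 0.721 for each). Against P4 alone, as fitted with a term for the shared column number, M1 differed by -3.24 for Il6st, -1.20 for Il11ra1, -0.24 for Osmr and 0 for Lifr, since P4 was low in these chains too, and by -4.37 for Il6ra. These 5 chains lie on chromosomes 13, 3, 4 and 15, where Lifr and Osmr are neighbors. Il11ra1 overlaps Ccl27a, which was at 26.9 CPM in M1, 27.9 in P4, 6.05 in P1 and 15.5 in P5.

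**Figure D3:**
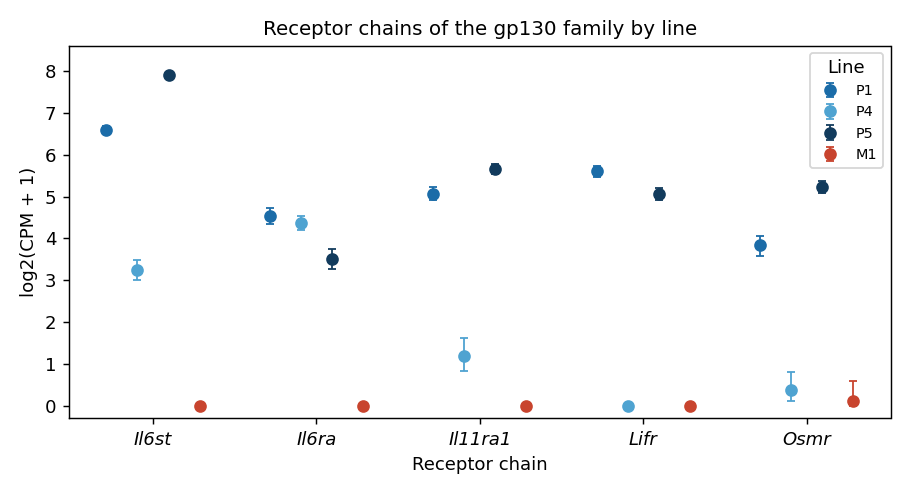
Levels of 5 receptor chains of the IL-6 family by line as log2(CPM + 1), 1 point per library, with exact Poisson 95% intervals for counting error on values above 0. P1 and P5 were above 10 CPM for every chain, P4 was so for Il6ra only, and M1 was at 0 or at 1 read for each.

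Of the ligands Il6, Il11 and Lif, Il11 alone reached 1 CPM. Il6 was at no more than 0.521 CPM, Il11 was at 3.04 CPM in P1, 1.30 in P5 and 0 elsewhere, and Lif did not reach 1 CPM in any line. Clcf1, a gp130 ligand outside the symbol rule, was above 20 CPM in every line, with 21.2 CPM in P1, 37.9 in P4 and 29.9 in P5, against 37.3 in M1. Of the JAK-STAT list, 8 of 25 tested members were above and 9 below every primary line (all genes: 22.0% above and 20.7% below), and 0 passed the threshold in either direction (limma). Ptpn11, Jak1, Stat3 and Socs7 were among those present in all lines. Stat3, the main STAT of gp130, was at 80.7 CPM in M1 and between 60.7 CPM (P4) and 241 CPM (P5) in the primary lines. Socs3, a feedback inhibitor induced by STAT3 and chosen once its values had been seen, was at 0.269 CPM in M1 against 17.9 in P1, 15.8 in P4 and 65.2 in P5, a difference of -4.45 ± 1.31 (log2, SE; limma, adjusted p = 0.416). The other Socs genes of the list were split. Socs2 and Socs7 were above every primary line in M1, and Socs1, Socs4, Socs5 and Socs6 were below. The part of the receptor chains in these levels was not tested.

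A cluster of 6 genes of the IL-1 receptor family lies on chromosome 1, and P1 was the highest line for each of the 4 neighbors that reached 1 CPM in any line. Il1r1, the signaling receptor of IL-1, was at 37.1 CPM in P1, 16.6 in P5, 4.83 in M1 and listed at 0 in P4. Il1rl1, the receptor of IL-33, was at 35.5 CPM in P1 and 9.98 in P5, with 0 listed for P4 and M1. Il18r1 was at 35.1 CPM in P1 but at 0.434 in P5, 0.144 in P4 and 0 in M1, while its partner chain Il18rap was at 38.9 in P1 and 6.86 in P5. Il1r2 and Il1rl2 from the same stretch of 467 kb were under 1 CPM in every line. The shared accessory chain Il1rap, on another chromosome, was at 2.94 CPM in P1, 3.99 in P5 and 0 in P4 and M1. Il1rn, the antagonist of IL-1, was also highest in P1, at 44.0 CPM against 10.2 CPM in P5 and 0 in P4 and M1. Il18bp, which neutralizes IL-18, was in contrast highest in M1, at 21.4 CPM against 7.71 CPM in P1, 8.91 in P5 and 0.144 in P4.

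**Figure D4:**
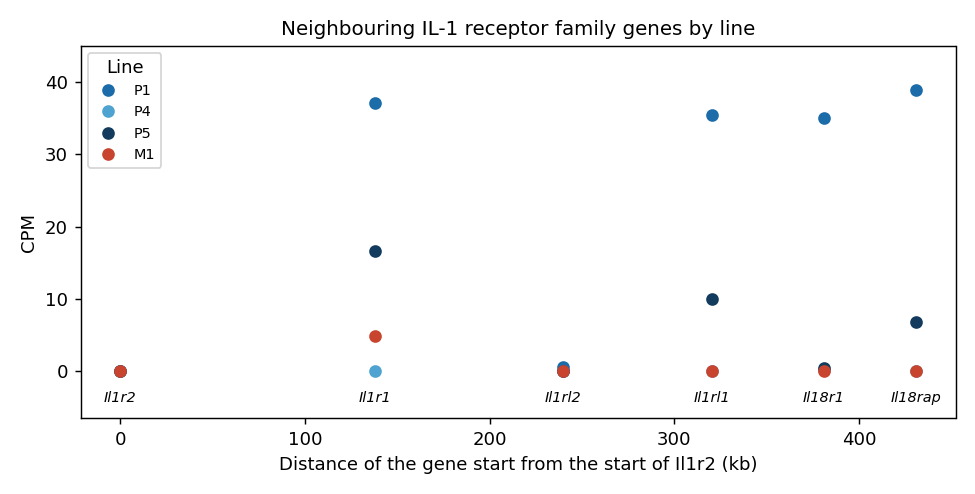
CPM of 6 neighboring IL-1 receptor family genes against the distance of each gene start from the start of Il1r2 in kb, 1 point per line. P1 is the highest line for Il1r1, Il1rl1, Il18r1 and Il18rap, and P4 is at 0 or near 0 for all 6.

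Il17ra, Il17rc and Il4ra were the receptor chains at 1 CPM or more in all 4 lines. Il17ra, the common chain of IL-17 receptors, was at 37.3 CPM in P1, 18.4 in P4 and 42.2 in P5, against 36.9 in M1 (log2 difference 0.26 ± 0.76, SE; limma, adjusted p = 0.862). The intervals of P1, P5 and M1 overlapped, and P4 was lower. Without P4 the difference turned to -0.10. Il17rc, its partner for IL-17A, was at 14.6 CPM in P1, 3.38 in P4 and 19.4 in P5, against 30.3 in M1. Il17re, the receptor chain for IL-17C and the neighbor of Il17rc on chromosome 6 (113458699 to 113470758), was at 15.1 CPM in M1, 1.57 in P1, 0.260 in P5 and 0 in P4. M1 was above every primary line for both, by 1.49 ± 1.31 and 3.45 ± 1.12 (log2, SE; limma, adjusted p = 0.721 and 0.465). Il4ra was at 62.9 CPM in P1 and 61.7 in P5 and at 19.2 in P4 and 19.5 in M1, so that the lines formed 2 pairs, each with overlapping intervals. Il13ra1, which forms a receptor with Il4ra, was at 35.9 CPM in P1 and 34.1 in P5, with 0 listed for P4 and M1. Il10rb, a chain shared by receptors of the IL-10 family, was at 9.24 CPM in P1, 18.0 in P4, 26.3 in P5 and listed at 0 in M1 (-4.12 ± 1.29, SE; limma, adjusted p = 0.448).

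Of the 16 chemokine receptors, 4 reached 1 CPM in any line, as did 14888 of all 54641 symbols. Cxcr2 was at 20.9 CPM in P4, 11.1 in M1, 1.09 in P1 and 0.521 in P5. P4 and M1 were thus high and P1 and P5 low. Cxcr4, the receptor of Cxcl12, was at 18.0 CPM in M1, 2.43 in P5, 0.420 in P1 and 0 in P4 (log2 difference 3.49 ± 1.31, SE; limma, adjusted p = 0.553). Cxcr5 and Cxcr6 stayed below 10 CPM.

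Csf1r, the receptor of Csf1 and Il34 and a defining gene of macrophages, was at 28.0 CPM in M1, 7.02 in P1, 8.94 in P5 and 0 in P4 (log2 difference 2.75 ± 1.96, SE; limma, adjusted p = 0.721). In a bulk library, more cells that carry a transcript and more transcript per cell cannot be told apart. Most tested immune cell markers were also highest in M1. Of 22 markers, 7 were at 1 CPM or more in M1 against 1 or 2 in each primary line, and the list summed to 164 CPM in M1 and to 7.35 to 14.4 CPM in the primary lines. The highest in M1 were Lyz2 at 47.4 CPM, Fcer1g at 39.2, Laptm5 at 39.1, Cd4 at 17.1 and S100a8 at 10.7, each under 1 CPM in every primary line. Of the 8 tested markers, 7 were above and 1 below every primary line (all genes: 22.0% and 20.7%). Cd4, Lyz2, Tyrobp, Fcer1g, Laptm5 and S100a8 passed the filter on low values only because of M1, which fixed their direction. The remaining marker above was Cd68, at 7.61 CPM in M1, 3.57 in P1, 2.52 in P5 and 0 in P4. The marker below was Cd14, at 14.3 CPM in P4, 2.52 in P1, 3.91 in P5 and 0 in M1. Ptprc, the pan-leukocyte gene, had 0 in M1 and at most 0.174 CPM elsewhere, and Cd3e, Itgam and Adgre1 were at 0 in every line. The part of these markers in the levels of Csf1r, Cxcr4, Ccl17, Ccl6 and Il16 was not tested. Il21r, also chosen once its values had been seen, was at 9.13 CPM in M1 and listed at 0 in the primary lines.

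Ligands and receptors were next paired in each line over 44 textbook axes, counting an axis when 1 ligand and every receptor chain were at 1 CPM or more. P1 and P5 each had 5 such axes, M1 had 2 and P4 had 1. The axis of Csf1 with Csf1r was complete in P1, P5 and M1, and the axis of Cxcl1 and Cxcl5 with Cxcr2 in P1, P4 and M1. For Cxcr2, the counting intervals of P1 (0.529 to 1.98 CPM) and P5 (0.191 to 1.13 CPM) overlapped, and both included 1 CPM. Il33 with Il1rl1 and Il1rap, and Il11 with Il11ra1 and Il6st, were complete in P1 and P5. Il18 with both of its chains was complete in P1. Cxcl12 with Cxcr4, and Cxcl16 with Cxcr6, were complete in P5. There, Cxcr6 was at 2.34 CPM, and its gene overlaps Fyco1. In M1, Cxcr4 was present without Cxcl12, and in P1 Cxcl12 was present with Cxcr4 at 0.420 CPM.

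**Figure D5:**
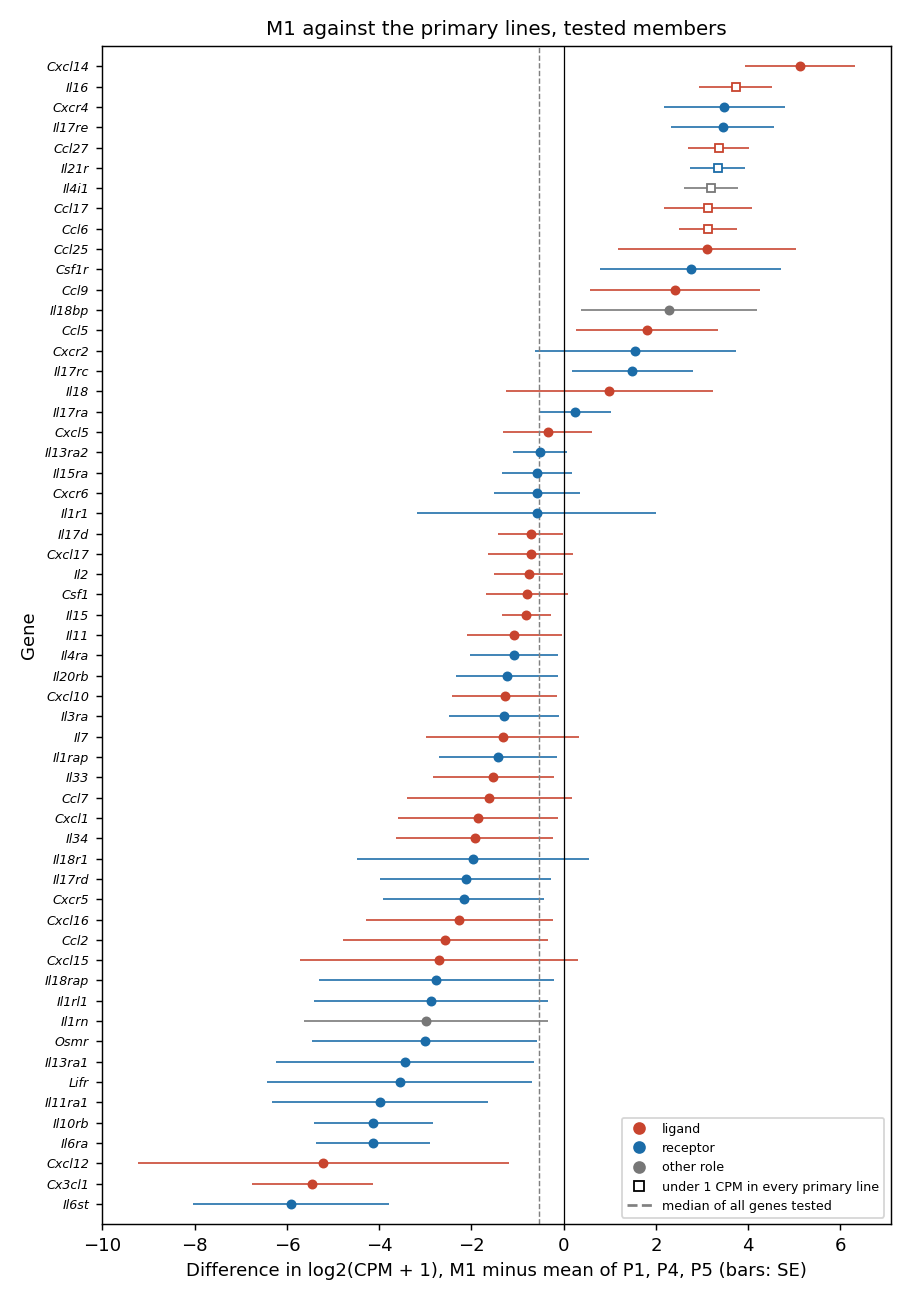
Differences in log2(CPM + 1) between M1 and the mean of the 3 primary lines for the 57 tested members, with SE as bars, colored by role. Open squares mark genes under 1 CPM in every primary line, and the dashed line is the median of all genes tested (-0.53). The differences run from -5.91 for Il6st to 5.12 for Cxcl14, and 0 of them passed the threshold.

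Across the family, M1 was then compared with the primary lines in the fit over all genes. Of the 57 tested members, 0 were higher and 0 were lower at an adjusted p under 0.05, as for all 14888 genes (0.0% in each direction; limma, smallest adjusted p = 0.304). With unadjusted p-values under 0.05, 8 members were higher (4.53% of all genes) and 3 were lower (5.15% of all genes). Of the 8, 6 were at 1 CPM or more in M1 alone and could only be higher, as were 3.46% of all genes. M1 was above every primary line for 15 members (26.3%, against 22.0% of all genes) and below every primary line for 12 (21.1%, against 20.7%). These shares lay near those of all genes. The median log2 difference was -1.07 for the members, -0.80 for ligands and -1.29 for receptor chains, against -0.53 for all genes. Without P4, M1 was below both P1 and P5 for 38 of 57 members, against 59.0% of all genes, and above both for 16, against 27.6%.

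Values of 0 were counted next, as a description without a test. Of the 18 members that reached 10 CPM in each of P1 and P5, 9 had a value of 0 in M1, against 10.1% of the 7534 genes at that level. These were Ccl2, Cx3cl1, Cxcl12, Il11ra1, Il13ra1, Il1rn, Il6ra, Il6st and Lifr. In P4, 6 of the 18 had a value of 0, against 19.8% of all genes. The median level in P1 and P5 was 37.4 CPM for these members and 44.8 CPM for all genes at that level. Of the 57 tested members, 8 were at 1 CPM or more in all 4 lines, against 39.6% of all genes, and 17 were at 1 CPM or more in P1 and P5 but at 0 in P4 and M1, against 15.0%. The tested members had a lower median level than all tested genes, at 8.41 against 13.2 CPM (mean of the 4 lines, not per length), and the part of this in these shares was not tested.

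The signaling components upstream of many of these ligands were compared last. Of 24 tested genes of NF-kB and IL-1 receptor signaling, 3 were above and 7 below every primary line (all genes: 22.0% and 20.7%). Of these 24, 0 passed the threshold in either direction (limma). Their median log2 difference was -0.95, against -0.53 for all genes. Nfkbia, the NF-kB inhibitor that is itself a target, was at 402 CPM in M1 against 175 in P1, 20.2 in P4 and 152 in P5. Irak1 was at 126 CPM in M1 and 66.4 to 73.2 CPM in the primary lines. Tab2 was at 37.1 CPM in M1 and 53.4 to 129 CPM in the primary lines. Rela, the main activating subunit, was at 21.8 CPM in M1, 99.0 in P1, 81.5 in P5 and listed at 0 in P4. Such zeros were frequent in P4, which had them for 19.8% of all genes reaching 10 CPM in both richer libraries. The part of these signaling components in the ligand levels was not tested.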

How the data were processed

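Total RNA of 4 untreated murine SCLC lines was sequenced, with 1 library per line. The labels name a total RNA kit and the methods a kit for 3' ends, so that the library type is uncertain and single genes were not ranked by level against each other. The authors deposited a gene table in CPM, in which each library sums to 1000000. The build in the submitters' notes is mm10. The methods name Bwa and GRCm39 in a passage on mutation calling, which differs from that build. For the gene table, aligner and counter are not given in the sources used here. Of 54838 rows, 85 without a symbol (0.00672% to 0.0130% of a library) were left out, and rows sharing a symbol were summed (Ccl19, Ccl27 and Il11ra2 among the members). The most frequent value above 0 was taken as 1 read. Within 0.001 reads, 79.0% to 88.9% of values were whole, so that no count model was fitted.

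The fit used limma 3.58.1 (R 4.3.3) and log2(CPM + 1) values (eBayes with trend, two-sided, Benjamini-Hochberg over all genes, threshold 0.05) and took genes reaching 1 CPM in any library. This scale understates changes of low genes. The spread came from the 3 primary lines, and M1 was assumed to vary like them. Every member with at least 10 CPM in at least 1 line was to be described, others only as a partner or in a count of 5 or fewer, and up to 4 genes of each related list by mean CPM. Members and lists were chosen with earlier results of these data known. Alternatives covered the pseudocount, filter, scaling, each primary line left out and a term for the shared column number.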

Additional observations from a re-analysis of the deposited data

How the results depend on the processing

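No member passed the threshold under any of the 11 alternatives. Leaving out P1, P4 or P5 in turn gave 0 members in each case, and the members' median log2 difference lay between -1.61 and -0.80. The count of members below every primary line lay between 11 and 38, with 38 without P4. Quantile normalization moved the median of all genes from -0.53 to -0.06 and that of the members from -1.07 to -0.32. With at least 10 CPM on average, 5 of 25 members were above every primary line (all genes: 23.7%), and the median was -2.70 for members and -0.054 for all genes. A filter of at least 1 CPM in a primary line, chosen after seeing the data, left 9 of 51 members above every primary line (17.6%, against 19.2% of all genes). Under this filter M1 was lower for 38 genes of 14373 (limma, adjusted p from 0.0034), 0 of them members, and the smallest adjusted p of a member was 0.108 for Il6st. The log2 difference of Cxcl5 ranged from -0.65 to 0.24 and that of Il17ra from -0.10 to 0.48 when a primary line was left out. With a term for the shared column number, which leaves 1 residual degree of freedom and compares M1 with P4, Cxcl5 turned to 0.26 and Il4ra to 0.021, the medians of members and of all genes became 0, and Cxcl12 and Lifr, at 0 in both lines, became 0. Of 23 named genes, the difference moved by over 1.5 times for 15 with this term, for 12 when a primary line was left out, for 13 with another pseudocount and for 1 (Cxcl5) under quantile normalization. At 5 CPM in place of 1, P1 had 12 ligands and 2 complete axes and P5 had 1 axis, and at 0.5 CPM P5 had 8 axes. No paired analysis was possible because, according to the series' design, the lines come from separate mice. Depth limits values under 0.216 to 0.315 CPM.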

Other observations

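Related genes outside the symbol rule gave further values. Mif, an inflammatory cytokine that also binds chemokine receptors, was at 843 CPM in P1, 1119 in P4 and 708 in P5, against 1055 in M1 (log2 difference 0.27 ± 0.47, SE; limma, adjusted p = 0.759). Kitl, the ligand of Kit, was at 110 CPM in P1, 30.7 in P5, 14.9 in M1 and 0 in P4. Of 7 tested related cytokines, 0 were above or below every primary line (all genes: 22.0% above and 20.7% below). Of these 7, 0 passed the threshold (limma). Among related receptors, Ltbr, the lymphotoxin beta receptor, was at 26.9 CPM in M1 and from 105 to 151 CPM in the primary lines, and Tnfrsf1a, the receptor of TNF, at 30.5 in M1 and from 63.1 to 121 CPM in them. Of 18 tested related receptors, 3 were above every primary line, namely Ackr3, Crlf2 and Ifnlr1. Ltbr and Tnfrsf1a were the 2 below (all genes: 22.0% above and 20.7% below), and 0 of the 18 passed (limma).

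Interferon-inducible genes, which share inducers with Cxcl10 and Ccl5, were nearly all listed at 0 in P4. Of 20 genes, 19 were at 0 there, 11 in M1, 3 in P1 and 0 in P5. Of the 18 tested, 0 reached 1 CPM in P4, 9 in M1, 12 in P1 and 17 in P5. Among all 14888 tested genes, 47.9% reached this level in P4, 61.6% in M1, 82.5% in P1 and 91.5% in P5. Cxcl10 was at 2.62 CPM in P1, 2.95 in P5 and 0 in P4 and M1, whereas Ccl5 was at 7.70 in M1, 1.68 in P1, 4.69 in P5 and 0 in P4. Of the 18 tested interferon-inducible genes, 5 were above and 0 below every primary line (all genes: 22.0% and 20.7%), and 0 passed (limma). Their median log2 difference was -0.69, against -0.53 for all genes.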
